A study of Mus musculus with 15 samples.

Results

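The factors described here are 57 genes of ribosome biogenesis whose proteins work in the nucleolus, chosen by gene name and grouped by role. Of the 25175 probe sets on the array, those annotated with just 1 symbol covered 56 of the genes, and Noc2l, a large subunit factor without such a probe set, was not analysed here. All 56 passed the level filter that defines an expressed probe set here, a 0 min signal over the median of the array in 2 or more replicates, as did 12544 probe sets in all. Where a gene had more than 1 probe set, the one brightest on average at 0 min was taken. The members therefore ran from 6.72 (Ddx51) to 81.0 (Npm1) in mean ratio at 0 min, where the ratio is the signal of a probe set over the 5th percentile of its array.

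A ribosome begins in the nucleolus, where RNA polymerase I transcribes a long precursor that holds the sequences of most ribosomal RNAs. Small nucleolar ribonucleoproteins (snoRNPs) modify this precursor, and the small subunit processome and the large subunit factors fold, cleave and package it together with ribosomal proteins. The demand for these factors is high in dividing cells, and myoblasts divide until they leave the cell cycle and fuse.

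The cells were proliferating C2C12 (LKO-1) mouse myoblasts, muscle precursor cells of an ATCC line that carried an empty lentivirus vector, grew in puromycin and were held below confluence so that they did not differentiate. All 15 samples had been in actinomycin D, which binds DNA and blocks RNA synthesis, for 30 min (8 µg/mL) when time 0 was taken, so no untreated cells were compared. Each of the 3 replicate time courses had 5 samples, an early pair (0 and 10 min), an intermediate one (50 min) and a late pair (110 and 230 min). Every sample had its own Affymetrix Mouse Gene 1.0 ST array, to measure how fast each mRNA was lost. Whether the 3 time courses were separate cultures is not given in the sources used here, so the spread behind the p-values is that between arrays and may be technical, and the number of arrays limits the precision.

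The label of the cells was checked against markers. Of 7 myoblast markers 6 were expressed, among them the muscle transcription factor Myod1 at 27.3 ± 2.74 (SD, n = 3) and desmin (Des) at 42.3 ± 7.73 (SD, n = 3) at 0 min. Of 7 myotube markers 5 also passed the filter, Myog and Ckm near the array median at 2.79 ± 0.474 and 2.81 ± 0.404 (SD, n = 3), Mymk and Tnnt3 at 3.50 ± 0.984 and 3.65 ± 0.392, and Acta1 at 12.02 ± 8.49. The part of such cells in the results was not tested. Of 6 fibroblast or adipocyte markers 2, Pdgfra and Pparg, were expressed. The median of the expressed probe sets was 8.54 ± 1.12 (SD, n = 3) when the time courses began and 3.85 ± 0.890 when they ended at 230 min. It was lower at 110 min than at 230 min in replicate 1, at 3.91 and 4.65. At 230 min the array of replicate 2 was the lowest, at 2.89.

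The transcripts of the nucleolar factors were lost from the cells after transcription stopped, as were those of nearly all expressed genes (56 of 56 members and 96.4% of expressed probe sets fell). Relative to the array median, 23 of the 56 were lost faster, where 15.6% of expressed probe sets were. The median level of the 56 members was 16.7 ± 5.11 (SD, n = 3 arrays) at 0 min, 16.5 ± 5.82 at 10 min, 15.3 ± 3.59 at 50 min, 8.81 ± 2.49 at 110 min and 6.85 ± 3.51 at 230 min. The largest step lay between 50 and 110 min, as it did for the median of the expressed probe sets (7.59 to 4.73). Each array received the same amount of total RNA, and the values are ratios within an array. They therefore give neither the number of cells nor the amount of RNA per cell.

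**Figure D1:**
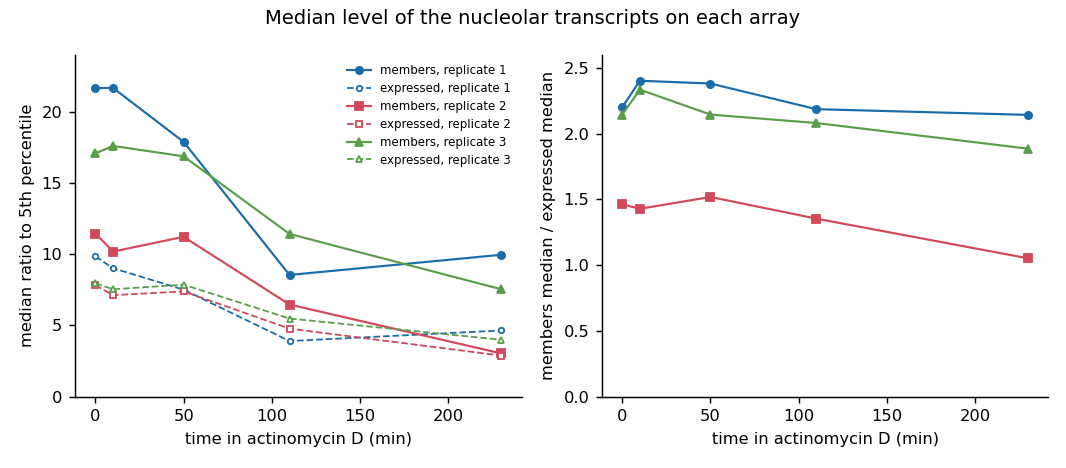
Median of the 56 nucleolar transcripts (filled symbols) and of the 12544 expressed probe sets (open symbols) by array, plotted over the minutes in actinomycin D as multiples of the 5th percentile (left), and the first divided by the second (right). Each line is 1 replicate time course. The nucleolar median was below 12 on every array of replicate 2, and relative to the expressed median it was 1.46 in replicate 2 against 2.20 and 2.14 in replicates 1 and 3 at 0 min.

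Each member was tested for a linear trend of log2 ratio on time with limma, blocked by replicate, and Benjamini-Hochberg adjustment over all expressed probe sets (adjusted p under 0.05). Apart from the block, the fit takes the arrays as independent, which those of a time course are not. Very small p-values may therefore overstate the evidence. All 56 members fell on the deposited scale, as did 96.4% of all expressed probe sets, whereas 23 members fell and 7 rose once arrays were scaled to their 75th percentile. The count on the deposited scale is therefore close to its background and rests on the scaling. The 75th percentile was close to the median of the expressed probe sets on every array, at 9.81 and 9.84 in replicate 1 at 0 min. Scaling to it thus nearly repeats the relative scale described next and is not a separate check. The median slope of the members was -0.32 log2 per hr, against -0.25 over all expressed probe sets.

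To separate the members from the loss that nearly all transcripts shared, each array was also divided by the median of its expressed probe sets. On this relative scale the median slope over all expressed probe sets was 0.069 log2 per hr, and that of the members was -0.0023 log2 per hr. The same test found 23 members that fell faster than the array median, where 15.6% of all expressed probe sets did, and 7 that fell slower, where 50.2% did. Of the 7, Bop1, Ncl and Npm1 were also above the median slope of all expressed probe sets, and the other 4 were not. The remaining 26 did not pass, and against the median of all probe sets, tested over the same expressed ones, 34 members fell faster and 0 fell slower. That median went from 2.59 at 0 min to 1.59 at 230 min, and that of the expressed probe sets from 8.54 to 3.85. The expressed median thus also fell against it. The share of all expressed probe sets called on this scale is not given here, so the 34 is only a description. Among the expressed probe sets that were at least as high as the median member at 0 min, 11.8% fell faster, and among those at least as high as the lowest member 20.01% did. The counts were 13 faster and 1 slower without the replicate block.

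The faster calls were steadier than the slower ones when a replicate was left out. Of the 23 members that fell faster, 19 kept that call when any 1 replicate was left out, and the exceptions were Rrp1b, Rrp15, Ddx56 and Gnl2. The relative slope was below 0 in all 3 time courses for 22 of the 23, with Rrp1b the exception. It was above 0 in all 3 time courses for all 7 slower members. The calls came from these same time courses, so such agreement is partly built in. Of the 7 slower members only Npm1 kept the call without each replicate in turn, and leaving out replicates 1, 2 and 3 in turn gave 2, 10 and 3 slower members. Without the low 110 min array of replicate 1 and the low 230 min array of replicate 2 it was 11, with 21 members faster.

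**Figure D2:**
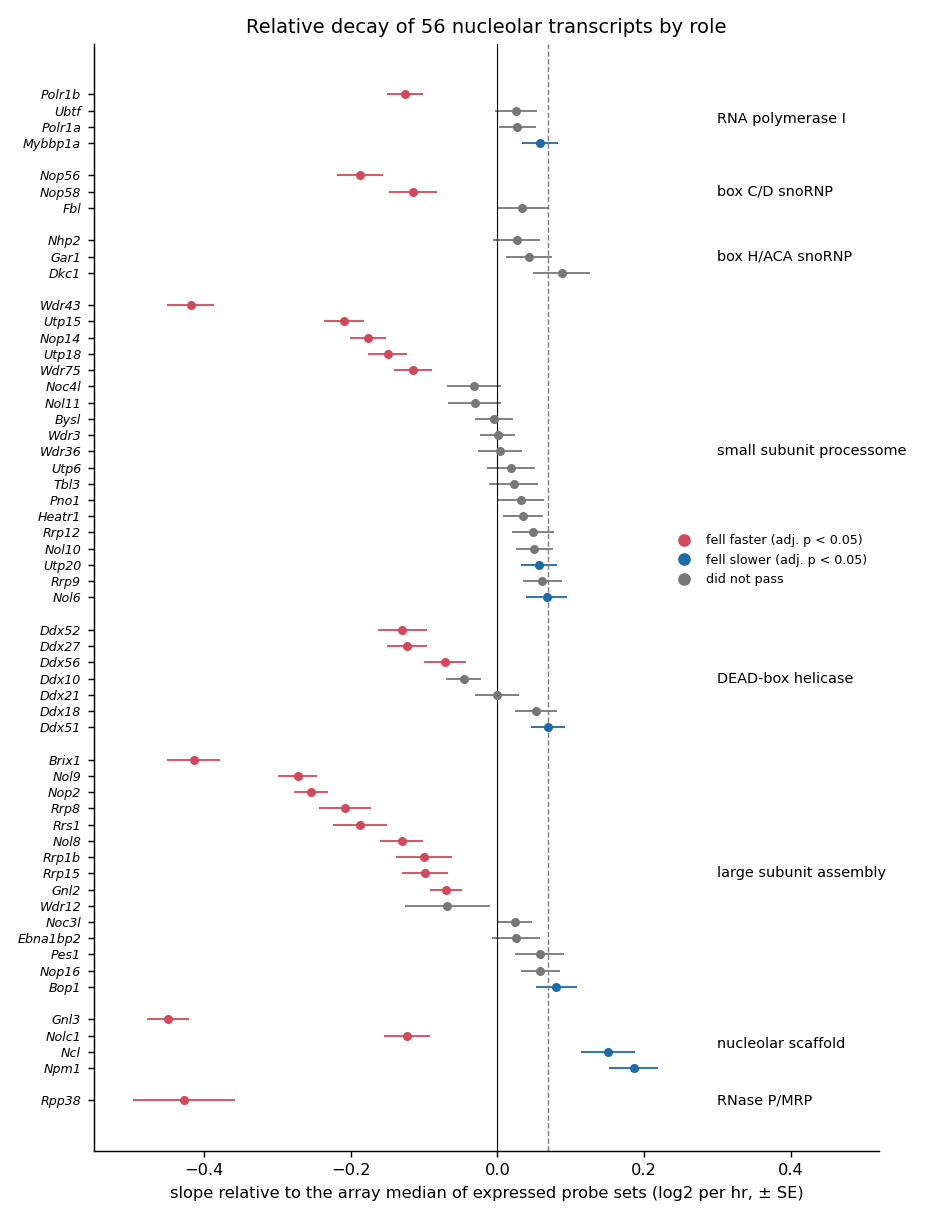
Slope of each of the 56 nucleolar transcripts relative to the array median of the expressed probe sets, in log2 per hr with its SE from limma, grouped by role. Red points fell faster and blue points slower (adjusted p under 0.05), and a dashed line marks the median slope over all expressed probe sets (0.069). The scaffold group spans the whole range, from Gnl3 at -0.45 to Npm1 at 0.19.

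The steepest loss was that of Gnl3, nucleostemin, a nucleolar GTP-binding protein abundant in stem and precursor cells. Its probe set (10418480) read 34.6, 14.5 and 28.4 in replicates 1, 2 and 3 at 0 min and 34.6, 14.2 and 27.2 at 10 min. It read 22.1, 13.2 and 24.2 at 50 min, 7.85, 4.85 and 11.3 at 110 min and 4.87, 2.25 and 4.04 at 230 min. Every 0 min array was above every 110 and 230 min array, replicate 2 was the lowest at each time, and the share of the 0 min level left at 230 min was 14.6% ± 0.798 (SD, n = 3). All 0 min arrays were above all 230 min arrays for 34 of the 56 members. The share of all expressed probe sets without such overlap was not computed, so a lack of overlap is only a description. Overlap here sets arrays of different time courses side by side, so its presence does not show that a transcript was kept. Within each time course every member was lower at 230 min than at 0 min. The highest share left was 79.5%, for Ncl in replicate 1. The slope was -0.77 ± 0.0520 log2 per hr on the deposited scale (SE, limma, Benjamini-Hochberg adjusted p = 1.35e-20) and -0.45 ± 0.0287 on the relative scale (adjusted p = 1.89e-08).

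Other scaffold and chaperone proteins of the nucleolus were at the opposite end. Npm1, nucleophosmin, a histone and ribosomal protein chaperone of the outer nucleolus, had the highest probe set signal of the members at 0 min (probe set 10385043), an order of signals that does not rank amounts of mRNA between genes. It read 106.9, 56.3 and 79.7 at 0 min, 86.8, 53.9 and 73.0 at 10 min, 82.7, 65.4 and 83.1 at 50 min, 65.7, 39.1 and 94.4 at 110 min and 83.7, 29.6 and 63.1 at 230 min. The 0 and 230 min arrays overlapped, and replicate 3 was at its highest at 110 min. The slope of Npm1 was -0.13 ± 0.0515 log2 per hr on the deposited scale (SE, limma, Benjamini-Hochberg adjusted p = 0.0134) and 0.19 ± 0.0333 on the relative scale (adjusted p = 0.000138), and it turned to 0.049 on the deposited scale with each array divided by its median. Another 3 probe sets were shared between Npm1 and other symbols and were not used.

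Ncl, nucleolin, a major RNA-binding protein of the nucleolus, stood next to Npm1 (probe set 10356312). It read 100.3, 42.3 and 76.8 at 0 min and 79.7, 22.4 and 52.5 at 230 min, again with overlap between the times. Its slope was -0.17 ± 0.0530 log2 per hr (SE, limma, Benjamini-Hochberg adjusted p = 0.00276), and 0.014 with each array divided by its median. On the relative scale it was 0.15 ± 0.0369 (adjusted p = 0.00182), a call that was lost without replicate 1 (adjusted p = 0.0584). Nolc1, which chaperones snoRNPs between the nucleolus and Cajal bodies, fell faster on the relative scale, at -0.12 ± 0.0313 log2 per hr (adjusted p = 0.00234). The scaffold group thus held 2 members that fell faster and 2 that fell slower. In each of the 3 time courses the slope of Gnl3 was below that of Npm1, by -0.72, -0.48 and -0.70 log2 per hr, a difference that no scaling of an array can change (mean -0.63 ± 0.130, SD, n = 3). With 3 time courses an exact two-sided sign-flip test cannot go below p = 0.25, so these differences between pairs of members are given as values.

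**Figure D3:**
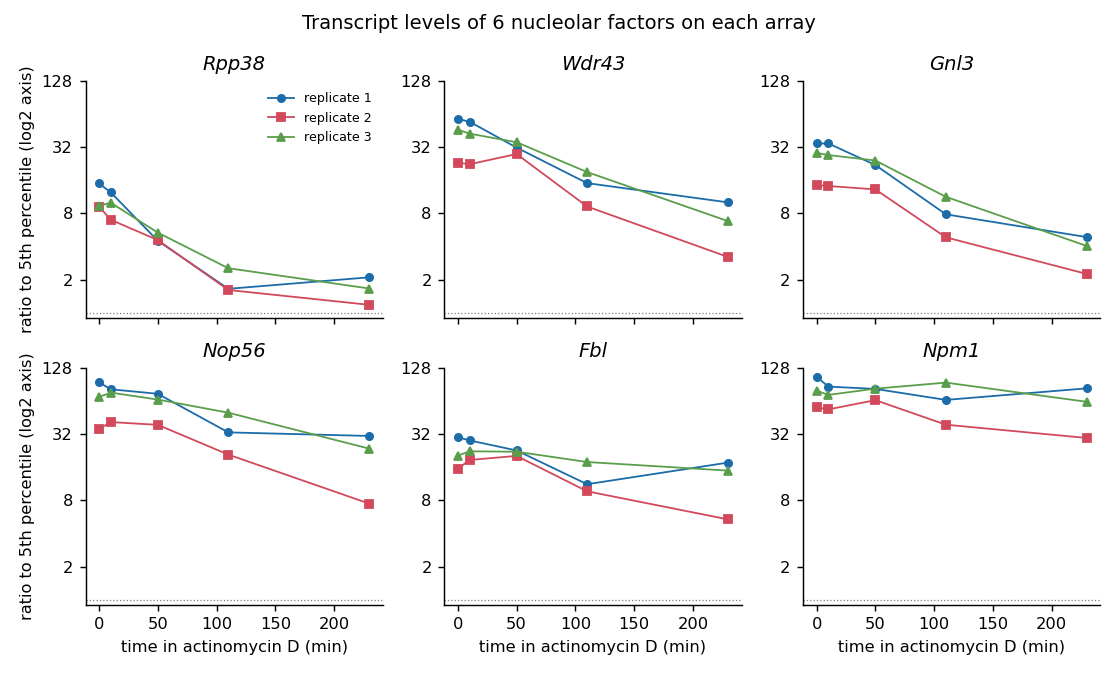
Ratio to the 5th percentile of the array (log2 axis) for 6 nucleolar transcripts against time in actinomycin D, 1 line for each replicate time course. The dotted line is the 5th percentile itself (1.00). Rpp38 was at 2.10 or below on all 3 arrays at 230 min, whereas Npm1 was between 29.6 and 83.7 there.

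Rpp38, a protein subunit of RNase P and RNase MRP, the ribonucleoproteins that process tRNA and ribosomal RNA precursors, had the shortest half-life of the members. Its probe set (10479749) read 15, 9.24 and 9.38 at 0 min, 12.4, 7.0 and 10.0 at 10 min, 4.51, 4.58 and 5.35 at 50 min, 1.65, 1.61 and 2.54 at 110 min and 2.10, 1.18 and 1.66 at 230 min. All 3 arrays at 50 min were already below all 3 at 0 min, and from 110 min on the signal was close to the 5th percentile of the arrays. Rpp38 was the only member that passed at 50 min, where it was lower by -1.19 ± 0.217 on the log2 scale (SE, limma, Benjamini-Hochberg adjusted p = 8.23e-05) and 1.99% of all expressed probe sets were lower. It was also the 1 member lower at 50 min on the relative scale (2.85%), where 0 members were higher (1.01%). The half-lives fitted in the 3 time courses were 31.4, 50.1 and 62.4 min.

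Rpp38 belongs to the same family of RNA-binding proteins as Nhp2, a core protein of the box H/ACA snoRNPs that guide pseudouridylation. Nhp2 (probe set 10375880) read 61.7, 17.1 and 43.0 at 0 min and 32.3, 6.79 and 23.7 at 230 min. These overlap between time courses, but within them 52.4%, 39.6% and 55.2% of the 0 min level was left. Its relative slope of 0.026 ± 0.0320 log2 per hr did not pass (limma, Benjamini-Hochberg adjusted p = 0.48). The slope of Rpp38 was below that of Nhp2 by -0.51, -0.38 and -0.47 log2 per hr in the 3 time courses. Of 7 other expressed subunits of RNase P and RNase MRP, 1 (Pop4) fell faster, 1 (Rpp21) fell slower and 5 did not pass, and their median relative slope was -0.044 log2 per hr.

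The 4 RNA polymerase I genes split. Polr1b, the second largest subunit of the enzyme, read 18.9, 7.55 and 14.3 at 0 min and 5.67, 2.41 and 4.83 at 230 min (probe set 10475965). Polr1a, its largest subunit, read 20.8, 10.4 and 15.9 at 0 min and 9.90, 4.16 and 8.00 at 230 min (probe set 10539042). In both genes the times did not overlap, and in each time course Polr1b fell more steeply, by -0.21, -0.11 and -0.14 log2 per hr. Relative to the array median Polr1b fell faster (-0.13 ± 0.0241 log2 per hr, limma, Benjamini-Hochberg adjusted p = 0.000246), while Polr1a at 0.027 ± 0.0253 and Ubtf, the upstream binding factor of ribosomal DNA, at 0.025 ± 0.0287 did not pass. Mybbp1a, a nucleolar binding partner of MYB, was called slower at 0.058 ± 0.0249 (adjusted p = 0.0466) but was lower, at -0.016, after quantile normalization. Of 9 other RNA polymerase I genes expressed, 3 fell faster, 1 fell slower and 5 did not pass, from the subunit Polr1c at -0.23 ± 0.0282 to the initiation factor Rrn3 at 0.10 ± 0.0290 log2 per hr on the relative scale.

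The small subunit processome is the large assembly that forms on the nascent precursor and prepares the small subunit. Of its 19 members 5 fell faster, 2 fell slower and 12 did not pass. The 5 were Wdr43, Utp15, Nop14, Utp18 and Wdr75. Wdr43 was the steepest. Its probe set (10446693) read 57.8, 23.2 and 46.3 at 0 min, 54.6, 22.4 and 42.5 at 10 min, 31.8, 27.8 and 35.5 at 50 min, 15.1, 9.25 and 19.0 at 110 min and 10.1, 3.21 and 6.80 at 230 min. All 0 min arrays were above all 110 and 230 min arrays, and replicate 2 alone was not lower at 50 min than at 0 min. The slope was -0.74 ± 0.0529 log2 per hr (SE, limma, Benjamini-Hochberg adjusted p = 1.80e-19) and 15.3% ± 1.87 (SD, n = 3) of the starting level was left at 230 min.

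Wdr43, Utp15, Wdr75, Nol11 and Heatr1 belong to UTP-A, the subcomplex that binds the precursor first and is also linked to its transcription. Their slopes on the deposited scale were -0.74, -0.53, -0.43, -0.35 and -0.28 log2 per hr, so the subunits of this complex differed among themselves. Heatr1 (probe set 10403511) read 20.8, 7.61 and 17.3 at 0 min and 11.2, 3.03 and 9.81 at 230 min, with overlap, and 50.1% ± 9.03 (SD, n = 3) was left. The slope of Wdr43 was below that of Heatr1 by -0.40, -0.43 and -0.53 log2 per hr in the 3 time courses. The subunits of UTP-B, which binds the precursor next, lay closer together. Tbl3, Utp6, Wdr36 and Wdr3 had slopes of -0.30, -0.30, -0.31 and -0.32 log2 per hr and did not pass on the relative scale, and Utp18 alone among the UTP-B members fell faster, at -0.47 on the deposited scale. Nol6 was the shallowest member of the processome, at -0.25 ± 0.0532 log2 per hr. It was called slower on the relative scale (limma, Benjamini-Hochberg adjusted p = 0.0427), a call that was lost when any 1 replicate was left out. Nol10 (probe set 10394749), the processome member with the lowest signal, read 10.49, 4.74 and 8.69 at 0 min and 5.79, 2.26 and 4.54 at 230 min, with overlap. Its relative slope of 0.050 ± 0.0254 log2 per hr did not pass (adjusted p = 0.0887).

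Of 36 other small subunit factors that were expressed, 19 fell faster, 7 fell slower and 10 did not pass, with a median relative slope of -0.069 log2 per hr. Mphosph10, a processome protein that binds Imp3 and Imp4, was the steepest of them at -0.39 ± 0.0305 log2 per hr, and Wdr46 the shallowest at 0.18 ± 0.0283.

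The core proteins of the box C/D snoRNPs, which guide methylation of ribosomal RNA, did not decay together. Nop56 (probe set 10476093) read 94.9, 35.7 and 69.9 at 0 min, 82.1, 41.3 and 76.5 at 10 min, 74.7, 39.0 and 66.2 at 50 min, 33.3, 20.9 and 50.3 at 110 min and 30.9, 7.48 and 23.7 at 230 min. Its 0 min arrays were all above the 230 min arrays, though by a small margin between replicates 1 and 2. Fibrillarin (Fbl), the methyltransferase itself, read 30.1, 15.5 and 20.4 at 0 min and 17.7, 5.38 and 14.9 at 230 min (probe set 10447589), and these overlap. On the relative scale Nop56 fell faster, at -0.19 ± 0.0311 log2 per hr (limma, Benjamini-Hochberg adjusted p = 6.74e-05), as did its partner Nop58, at -0.11 ± 0.0327 (adjusted p = 0.00525), whose slope was 0.013 without the 230 min arrays. Fbl did not pass, at 0.034 ± 0.0352.

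In each time course the slope of Nop56 was below that of Fbl, by -0.21, -0.17 and -0.28 log2 per hr, and below that of its paralogue Nop58, by -0.074, -0.11 and -0.035. The 3 box H/ACA members, Nhp2, Gar1 and the pseudouridine synthase dyskerin (Dkc1), had relative slopes of 0.026, 0.043 and 0.088 log2 per hr and none passed, with an adjusted p of 0.056 for Dkc1 as the lowest. Of 11 other snoRNP genes 3 fell faster, 4 fell slower and 4 did not pass. Nufip1, an assembly factor, was the steepest at -0.32 ± 0.0346 log2 per hr on the relative scale, and Snu13, a core protein of the box C/D particle, the shallowest at 0.15 ± 0.0312.

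Of the 7 DEAD-box helicases, which remodel RNA at several steps of both subunits, 3 fell faster (Ddx52, Ddx27 and Ddx56), 1 fell slower (Ddx51) and 3 did not pass. Ddx52 (probe set 10379779) read 17.4, 8.78 and 10.7 at 0 min and 5.19, 2.34 and 5.14 at 230 min, without overlap, and its relative slope was -0.13 ± 0.0334 log2 per hr (limma, Benjamini-Hochberg adjusted p = 0.00261). Ddx51 (probe set 10524248), the member with the lowest signal, read 8.33, 5.57 and 6.26 at 0 min and 4.22, 2.43 and 3.73 at 230 min. These did not overlap either, and its relative slope was 0.069 ± 0.0228 (adjusted p = 0.0128), a call that was lost without replicate 2 (adjusted p = 0.0924) or replicate 3 (adjusted p = 0.0953).

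Of the 15 large subunit factors 9 fell faster, 1 fell slower and 5 did not pass. Brix1, which helps to install the 5S ribonucleoprotein, was the steepest (probe set 10427718). It read 52.2, 23.8 and 41.0 at 0 min, 45.3, 28.1 and 40.3 at 10 min, 33.8, 25.99 and 39.3 at 50 min, 14.2, 8.86 and 18.2 at 110 min and 10.9, 2.66 and 7.39 at 230 min. No 110 or 230 min array reached the lowest 0 min array. The slope was -0.73 ± 0.0547 log2 per hr (SE, limma, Benjamini-Hochberg adjusted p = 1.02e-18), and -0.61, -0.91 and -0.68 in replicates 1, 2 and 3.

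Rrs1, which is also linked to the 5S ribonucleoprotein, read 18.5, 11.1 and 10.5 at 0 min and 4.31, 2.66 and 3.83 at 230 min (probe set 10344723). Its relative slope was -0.19 ± 0.0368 log2 per hr (limma, Benjamini-Hochberg adjusted p = 0.000304), and Brix1 was steeper in all 3 time courses, by -0.065, -0.41 and -0.21. Nol9, a polynucleotide kinase of precursor processing, read 19.8, 11.1 and 14.2 at 0 min and 4.56, 2.11 and 3.90 at 230 min (probe set 10510629), with a slope of -0.59 ± 0.0524 log2 per hr. Nop2, a methyltransferase of the large subunit RNA, read 31.3, 11.8 and 21.2 at 0 min and 6.99, 2.66 and 5.51 at 230 min (probe set 10541845), with a slope of -0.57 ± 0.0511 log2 per hr. None of the 3 genes overlapped between 0 and 230 min. Nol8, among the lowest signals at 0 min (12.2, 4.71 and 8.01), also fell faster, at -0.13 ± 0.0292 on the relative scale (adjusted p = 0.000941).

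The PeBoW proteins Pes1, Bop1 and Wdr12 form a stable trimer that is needed to process the large subunit precursor. Bop1 (probe set 10429908) read 39.4, 16.9 and 29.4 at 0 min and 23.9, 6.90 and 21.4 at 230 min. Pes1 (probe set 10373814) read 40.0, 21.0 and 26.9 at 0 min and 21.8, 8.16 and 19.3 at 230 min, and in both genes the times overlapped. The slopes of Bop1 and Pes1 differed by 0.035, 0.014 and 0.019 log2 per hr in the 3 time courses (mean 0.023 ± 0.0111, SD, n = 3). Bop1 was called slower on the relative scale, at 0.081 ± 0.0283 (limma, Benjamini-Hochberg adjusted p = 0.0185), and lost the call without replicate 1 (adjusted p = 0.104) or replicate 3 (adjusted p = 0.276), while Pes1 at 0.058 ± 0.0332 did not pass (adjusted p = 0.131).

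Wdr12 could not be placed beside its partners with the same confidence, because its 2 probe sets differed. The one used (10550098) read 20.5, 9.78 and 12.3 at 0 min and 31.7, 6.88 and 22.7 at 10 min. The other (10355037) read 11.9, 4.50 and 9.51 at 0 min and 10.4, 5.33 and 8.90 at 10 min. The relative slope of the first was -0.068 ± 0.0582 log2 per hr, which did not pass.

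Gnl2 and Gnl3 are related nucleolar GTP-binding proteins. Gnl2 (probe set 10508019) read 16.9, 9.42 and 13.6 at 0 min and 7.22, 2.77 and 5.90 at 230 min, without overlap. The slope of Gnl3 was below that of Gnl2 by -0.43, -0.28 and -0.42 log2 per hr. Gnl2 was itself called faster than the array median (-0.070 ± 0.0216 log2 per hr, limma, Benjamini-Hochberg adjusted p = 0.00848), and the call was lost without replicate 2 (adjusted p = 0.0716) or replicate 3 (adjusted p = 0.0530). Of 37 other large subunit factors 14 fell faster, 7 fell slower and 16 did not pass. Nmd3, the export adaptor of the large subunit, was the steepest at -0.49 ± 0.0326 log2 per hr on the relative scale, and Nsa2 the shallowest at 0.12 ± 0.0246.

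Over all 114 expressed genes of the pathway outside the 56, 44 fell faster, 24 fell slower and 46 did not pass, with a median relative slope of -0.042 log2 per hr. The exosome and nuclease genes, which trim and degrade the precursor, held 4 faster, 4 slower and 6 that did not pass, from Mphosph6 at -0.35 ± 0.0428 to Exosc5 at 0.13 ± 0.0296 log2 per hr.

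Most calls came at 110 and 230 min, in the members as in all expressed probe sets, which does not show that the loss began late. Against 0 min, no member passed at 10 min on either scale, nor did any expressed probe set (0.0%), and at an unadjusted p under 0.05 there were 0 members lower or higher on the deposited scale and 1 higher on the relative scale. At 110 min 53 members were lower on the deposited scale (84.8% of all expressed probe sets) and at 230 min 56 were (94.3%). On the relative scale 11 members were lower at 110 min (9.78%), namely Brix1, Gnl3, Nol8, Nol9, Nop2, Rpp38, Rrp8, Rrs1, Utp15, Utp18 and Wdr43. At that time 7 were higher (24.1%), Ddx18, Dkc1, Gar1, Ncl, Nol10, Nop16 and Npm1. At 230 min 19 were lower (14.5%) and Bop1, Ncl, Npm1 and Utp20 were higher (44.0%). The 4 comparisons share the 0 min arrays, and without the replicate block the relative counts were 3 lower and 0 higher at 110 min and 9 lower and 0 higher at 230 min.

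Half-lives were fitted as an exponential decay of the ratios in each time course. A fit was taken as reliable when the p of the decay rate was under 0.05 and its 95% confidence interval was narrower than 2 half-lives. A reliable half-life in at least 2 of 3 time courses was found for 11 of the 56 members, where 11.2% of all expressed probe sets had one, and in all 3 for Rpp38 and Nop2 (1.66% of all expressed probe sets). Nop2 had 77.4, 109.5 and 122 min, a mean of 1.72 ± 0.385 hr (SD, n = 3). The mean for Rpp38 was 0.800 ± 0.260 hr (SD, n = 3). For Gnl3 and Wdr43, reliable in 2 time courses each, it was 1.35 ± 0.275 and 1.44 ± 0.373 hr, and the interval of Wdr43 in replicate 2 had no upper bound. The mean for Brix1 was 1.504 ± 0.248 hr, but its fit was reliable in 1 time course only, so Brix1 is not among the 11.

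The median over the 56 members was 3.25 hr, against 4.11 hr over the expressed probe sets with a decay in all 3 time courses. Of the 56, 24 had no reliable fit and 21 had one in a single time course, so most of the means are imprecise. The median of the members was 8.34 hr after division of arrays by their median, 10.8 hr after division by the 75th percentile. A decay curve that was allowed a floor gave 2.17 hr. Npm1 gave 711, 244 and 1227 min, a mean of 12.1 ± 8.195 hr (SD, n = 3), and Ncl 8.32 ± 3.80 hr, and their intervals had no upper bound. Under 2 hr there were 9 members and over 4 hr there were 10. Replicate 3 gave the longest half-life for 50 of the 56, with a median of 4.08 hr against 2.45 hr in replicate 1 and 2.86 hr in replicate 2. Of the single fits, 29 were reliable in replicate 3, 10 in replicate 2 and 6 in replicate 1, and without replicate 3 the number of members with a reliable half-life was 2.

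**Figure D4:**
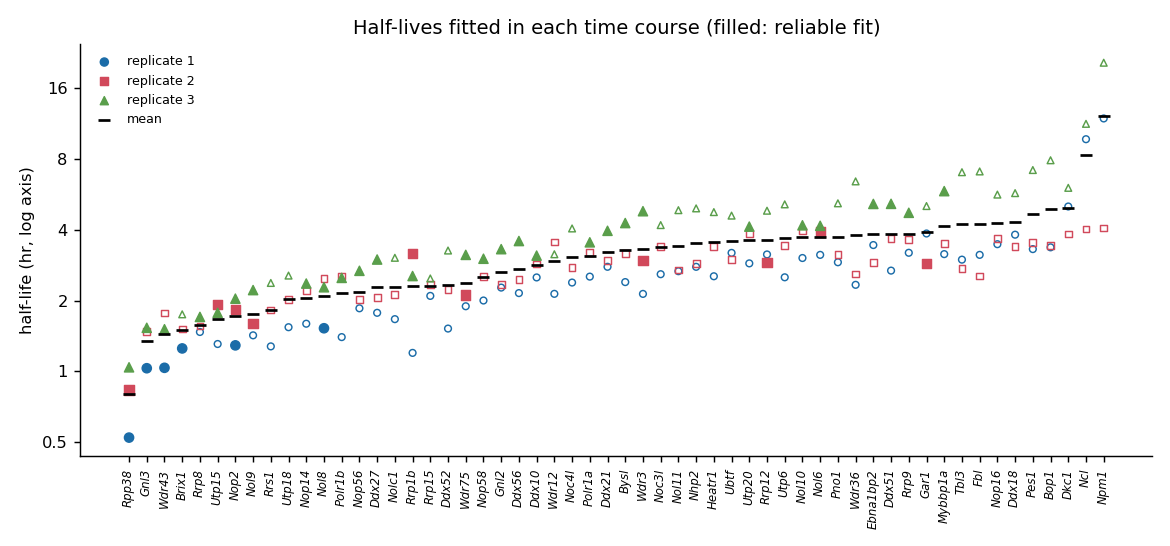
Half-life in hr (log axis) fitted for each of the 56 nucleolar transcripts in replicates 1, 2 and 3, ordered by the mean (black bar). Filled symbols met the criteria for a reliable fit. Replicate 3 was the longest for 50 of the 56, and the means ran from 0.800 hr for Rpp38 to 12.1 hr for Npm1.

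The nucleolar transcripts also differed between the time courses in level. At 0 min replicate 2 was the lowest of the 3 for 55 of 56 members and replicate 1 the highest for 55, where 51.4% and 75.6% of all expressed probe sets had the same order. Nhp2, at 61.7, 17.1 and 43.0, showed it most. On the relative scale, which takes out the overall brightness of each array, replicate 2 was the lowest at all 5 times for 52 of 56 members, against 9.19% of all expressed probe sets. The 4 others were Noc4l, Pes1, Rpp38 and Rrs1. The mean of replicates 1 and 3 was above replicate 2 by a median of 0.64 on the log2 relative scale, from 0.23 for Rpp38 to 1.29 for Nhp2. Over all expressed probe sets the median was -0.0097, and over the 114 other pathway genes it was 0.37. The 5 arrays of a time course are not independent and a time course is a single replicate here, so this difference has no test, and what moved with it was not tested.

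The promoters of the members were also compared. The window from 250 bases before to 50 bases after the start of the gene was available from RefSeq (build GRCm38.p6) for 46 of the 56. It was searched for CACGTG, the palindromic E-box bound by MYC and other basic helix-loop-helix proteins, which reads the same on both strands. It was found for 9 of the 46 members (19.6%), 19 of 103 other pathway genes (18.4%), 987 of 8037 genes of expressed probe sets (12.3%) and 2187 of all 27025 genes with a window (8.09%). A match is a description of the letters and not a sign of binding. The median slope was -0.35 log2 per hr for the 9 members with the motif and -0.36 for the 37 without. The windows around the motif in Wdr43 and Rpp38, among the steepest members, and in Utp18, Nop2, Nol11 and Pes1 are shown on the strand of the gene with the motif in capitals. They were not picked by slope, and the other members with the motif are not shown.
Wdr43, chr17:71616222-71616247, plus strand: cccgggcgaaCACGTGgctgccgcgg
Rpp38, chr2:3332603-3332628, minus strand: agtgcaggcgCACGTGgagcgggcgc
Nop2, chr6:125131813-125131838, plus strand: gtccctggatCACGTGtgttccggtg
Utp18, chr11:93885771-93885796, minus strand: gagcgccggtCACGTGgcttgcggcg
Nol11, chr11:107189409-107189434, minus strand: tgagcgttcgCACGTGgtctagactc
Pes1, chr11:3963967-3963992, plus strand: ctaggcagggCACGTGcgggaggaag

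In Wdr43, Rpp38 and Pes1 the motif lay just after the start of the gene, and in Nop2, Utp18 and Nol11 before it, by 60, 20 and 43 bases. Wdr43 and Rpp38 had slopes of -0.74 and -0.74 log2 per hr, whereas Pes1 had -0.26. Of the 9 members with the motif the highest slope was -0.26, and of the 37 without it -0.17.

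Several members carry small nucleolar RNA genes inside their own span in the RefSeq annotation. This held for 6 of the 56 (10.7%), against 227 of 9688 protein-coding genes of expressed probe sets (2.34%). Nop56 spanned 5, Nop58 4, Gnl3 and Wdr43 3 each, Ncl 2 and Dkc1 1. The host members included the steepest and nearly the shallowest transcripts, from Gnl3 at -0.77 to Ncl at -0.17 log2 per hr, with a median of -0.47, against -0.32 for the 50 others. Whether the probe sets reach into the introns that hold the small RNAs was not analysed here.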

How the data were processed

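The authors hybridized RNA from each sample to an Affymetrix Mouse Gene 1.0 ST array and deposited linear ratios, the signal of each probe set divided by the 5th percentile of its array. How probes were summarised and background was corrected, and with which software, is not given in the sources used here. The files hold no detection p-values, so the level filter stands in for detection. Groups were the 5 times in the labels. Trends and contrasts of log2 ratios were tested with limma 3.58.1 in R 4.3.3, fitted over 12544 expressed probe sets with the replicate as a block, and half-lives by least squares with scipy 1.17.1 in Python 3.11.15, with profile confidence intervals. On simulated data over 12544 probe sets the trend recovered 81% of slopes of 0.25 log2 per hr and 100% of slopes of 0.5, with 6 false calls. The simulated noise was independent between arrays, without shifts shared by an array or a time course. It therefore checks the code and does not give the error rate in these data. Replicate numbers mark time courses: deviations from the time means correlated above 0.1 in 29 of 30 same-numbered array pairs (median 0.362) and in 14 of 60 other pairs. The members, roles and lists of other pathway genes were chosen with earlier results of these data known. Members named with values are the 5 steepest and 5 shallowest, those with a half-life reliable in all 3 replicates, the ends of each role group and of each list, the 3 highest and 3 lowest signals, and the pairs Nop56 with Nop58 and Rpp38 with Nhp2. The other pairs, Ubtf, Gar1, the rest of UTP-A, UTP-B and PeBoW, Nolc1, Utp18 and Rrs1 were picked after their values were seen.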

Additional observations from a re-analysis of the deposited data

How the results depend on the processing

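The direction on the deposited scale rests on the scaling. After division of arrays by their median, 34 members fell (median slope -0.14 log2 per hr), the slopes of Ncl and Npm1 were 0.014 and 0.0493, 5 half-lives were reliable with a median of 8.34 hr, and the median level at 0 min was 6.52. The share of all expressed probe sets that fell after this division is not given here. After division by the 75th percentile, 23 fell and 7 rose (median -0.0028), the median half-life was 10.8 hr, 11 members were lower and 7 higher at 110 min, and 19 were lower and 3 higher at 230 min. Slopes then turned to 0.0268 for Polr1a, 0.0249 for Ubtf, 0.0579 for Mybbp1a, 0.0337 for Fbl, 0.0873 for Dkc1, 0.0427 for Gar1, 0.0257 for Nhp2, 0.15 for Ncl, 0.19 for Npm1, 0.00026 for Wdr3, 0.0033 for Wdr36, 0.0179 for Utp6, 0.0563 for Utp20 and 0.0346 for Heatr1. They turned to 0.0668 for Nol6, 0.0497 for Nol10, 0.0217 for Tbl3, 0.0607 for Rrp9, 0.0322 for Pno1, 0.0480 for Rrp12, 0.0522 for Ddx18, 0.0686 for Ddx51, 0.0801 for Bop1, 0.0573 for Pes1, 0.0580 for Nop16, 0.0239 for Noc3l and 0.0251 for Ebna1bp2. The 75th percentile of all probe sets was close to the median of the expressed ones on every array. The slopes and time point counts after division by it therefore nearly repeat those of the relative scale. They are not a separate check.

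On the relative scale (23 faster, 7 slower, median -0.0023), slower members numbered 2 with the 75th percentile of the expressed probe sets (median -0.0398) or the 75th percentile filter (median -0.0416), 1 after quantile normalization (median -0.0476, Mybbp1a -0.0155) and 17 after subtraction of the 5th percentile (median 0.0050). Without a filter on level, with the median and the test both over all probe sets, there were 41 faster and 0 slower (median -0.14). The share of all probe sets called in this setting is not given here, so the 41 is not a result about the members. Slopes turned to -0.11 for Polr1a, Ubtf, Tbl3, Noc3l and Ebna1bp2, -0.0782 for Mybbp1a, -0.0799 for Utp20, -0.0935 for Gar1, -0.0864 for Nol10, -0.0882 for Rrp12, -0.14 for Wdr3, -0.13 for Wdr36, -0.12 for Utp6, -0.10 for Heatr1, -0.0694 for Nol6, -0.0676 for Ddx51 and -0.0560 for Bop1. Slower members numbered 3 with time 0 left out, and 11 with the low arrays of replicate 1 (110 min) and replicate 2 (230 min) left out (median 0.0087). Leaving out 230 min gave 14 faster (median 0.0205, Nop58 0.0130) and a median slope of -0.43 on the deposited scale. Leaving out 1 replicate gave 2 to 10 slower and 20 to 21 faster, with a median slope from -0.0307 to -2.45e-05. Shares over all features under these changed settings are not given here, so the counts are descriptions. The cause of these changes was not tested.

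Without the replicate block, 13 members were faster and 1 slower, 31 were lower at 110 min on the deposited scale, and on the relative scale 3 were lower and 0 higher at 110 min and 9 lower and 0 higher at 230 min.

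Reliable half-lives numbered 2 to 8 with 1 replicate left out, 1 with time 0 left out, 5 with 230 min left out, 21 with a straight line through the log2 ratios, 4 with Wald intervals and 0 with a constant floor in the curve (median 2.17 hr). A signal near the 5th percentile, such as Rpp38 from 110 min on, leaves little room to fall further.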
